A study of Mus musculus musculus x Mus musculus castaneus with 8 samples.

Results

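The troponin and striated muscle actin genes described here are 9 of the 24421 genes in the deposited table of read counts: the troponin T genes Tnnt1, Tnnt2 and Tnnt3, the troponin C genes Tnnc1 and Tnnc2, the troponin I genes Tnni1 and Tnni2, and the actin genes Acta1 and Actc1. They were taken as a family because of Tnnt2, which had no reads in untreated cells and reads in every drug group. The family was thus chosen by the Tnnt2 read counts of drug-treated against untreated cells, which are given as a description without a test. RNA came from fibroblasts grown out of the tail of a female hybrid mouse, the F1 offspring of Mus musculus musculus crossed with Mus musculus castaneus, in a study that, by its title, looked for drugs that reactivate the silent X chromosome. The 4 groups had 2 libraries each. The first received 5azadC (the nucleoside 5-aza-2′-deoxycytidine, which blocks DNA methyltransferases), the second VX680 (which blocks the mitotic Aurora kinases), and the third both drugs together, called the combination below. The fourth, called untreated, received the solvent DMSO alone, and the total volume added to the medium was the same in all groups. Growth on the 15 cm plates lasted 72 h, with drugs present from 24 h after plating. The labels do not say whether the replicates were separate cultures, so the p-values rest on a spread between libraries that may be technical.

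In striated muscle the thin filament is a polymer of actin that carries tropomyosin and the troponin complex. Troponin T ties the complex to tropomyosin, troponin C binds calcium, and troponin I blocks the myosin sites on actin until calcium arrives. Each subunit has several genes with different uses. Tnnt1 and Tnni1 are the slow skeletal forms, Tnnt3, Tnnc2 and Tnni2 the fast skeletal forms, Tnnc1 serves slow skeletal and heart muscle, and Tnnt2 is the heart form that embryonic skeletal muscle also uses. Acta1 is the main actin of adult skeletal muscle and Actc1 that of the heart. Fibroblasts are known for non-muscle actins and for little of these genes. As background, 5-azacytidine, a relative of 5azadC, is a textbook means of obtaining muscle cells from some mouse fibroblast lines.

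Reads of near-identical genes can be ambiguous, and of the 9 members Acta1 alone shared stretches of 50 bases with another gene. This was measured on the coding sequences of GENCODE M21 (mouse build GRCm38), while the count table is on build mm9, so no coordinates are given. Of the 1082 windows of 50 bases in the Acta1 coding sequence, 31 (2.87%) also occurred in a transcript of another gene, 28 of them in the cytoplasmic actin gene Actb. None of the windows of the other 8 members did so. Acta1 and Actc1, which encode nearly the same protein, could thus be told apart at this window length. Their coding sequences had the same base at 976 of 1131 positions (86.3%), and their longest shared run was 29 bases.

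The troponin T genes Tnnt2 and Tnnt3 are shown around their longest shared run, since Tnnt2 was read in every drug library and Tnnt3 hardly at all. Bases 277 to 353 of the Tnnt2 and 103 to 179 of the Tnnt3 coding sequence, 5′ to 3′, around that run of 17 bases, differed at the 19 of 77 positions in capitals.
Tnnt2: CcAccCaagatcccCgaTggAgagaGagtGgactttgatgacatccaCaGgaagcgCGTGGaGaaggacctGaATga
Tnnt3: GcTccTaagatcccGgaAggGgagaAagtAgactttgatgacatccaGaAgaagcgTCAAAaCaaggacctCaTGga

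The libraries held between 6908503 and 11169532 reads in genes. Levels are given as CPM, the usual scaling of a count by its library size, on library sizes adjusted by the TMM method, and 3 reads, the least taken here as detection, corresponded to between 0.272 and 0.440 CPM in a library. Replicates spread more than counting error in every group, with a chi-square per degree of freedom of 20.05 for 5azadC, 3.07 for VX680, 2.76 for the combination and 7.52 for untreated cells. Fibroblast markers were abundant throughout, and their summed level ranged from 17647 to 21786 CPM with 5azadC, 12985 to 13471 with VX680, 10879 to 11104 with the combination and 30609 to 34694 in untreated cells. In RNA from whole plates, more cells of a type and more RNA per cell cannot be told apart.

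Members differed widely in level. Between genes, levels are compared as reads per kilobase (RPKM, which is CPM divided by the deposited gene length in kilobases). Acta1 was the highest member in every group, at a mean of 27.9 RPKM with 5azadC, 18.1 with VX680, 16.6 with the combination and 13.4 in untreated cells. With the combination Tnnt2 came next at 11.3 RPKM, followed by Tnnc1 at 2.40, Actc1 at 1.30 and Tnnt1 at 0.782, and the rest lay under 0.4. In untreated cells the order after Acta1 was Tnnc1 at 1.95 RPKM and Actc1 at 0.238, with Tnnt2 without a read. In the VX680 group Tnnt2 was second at 6.70 RPKM, and in the 5azadC group its 1.67 RPKM lay beside the 1.54 RPKM of Actc1 within their SDs of 0.948 and 0.225. Only 4 of the 9 members (Tnnt2, Acta1, Actc1 and Tnnc1) had enough reads for the test across all genes, and the other 5 had between 1 and 17 reads in all 8 libraries together.

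**Figure D1:**
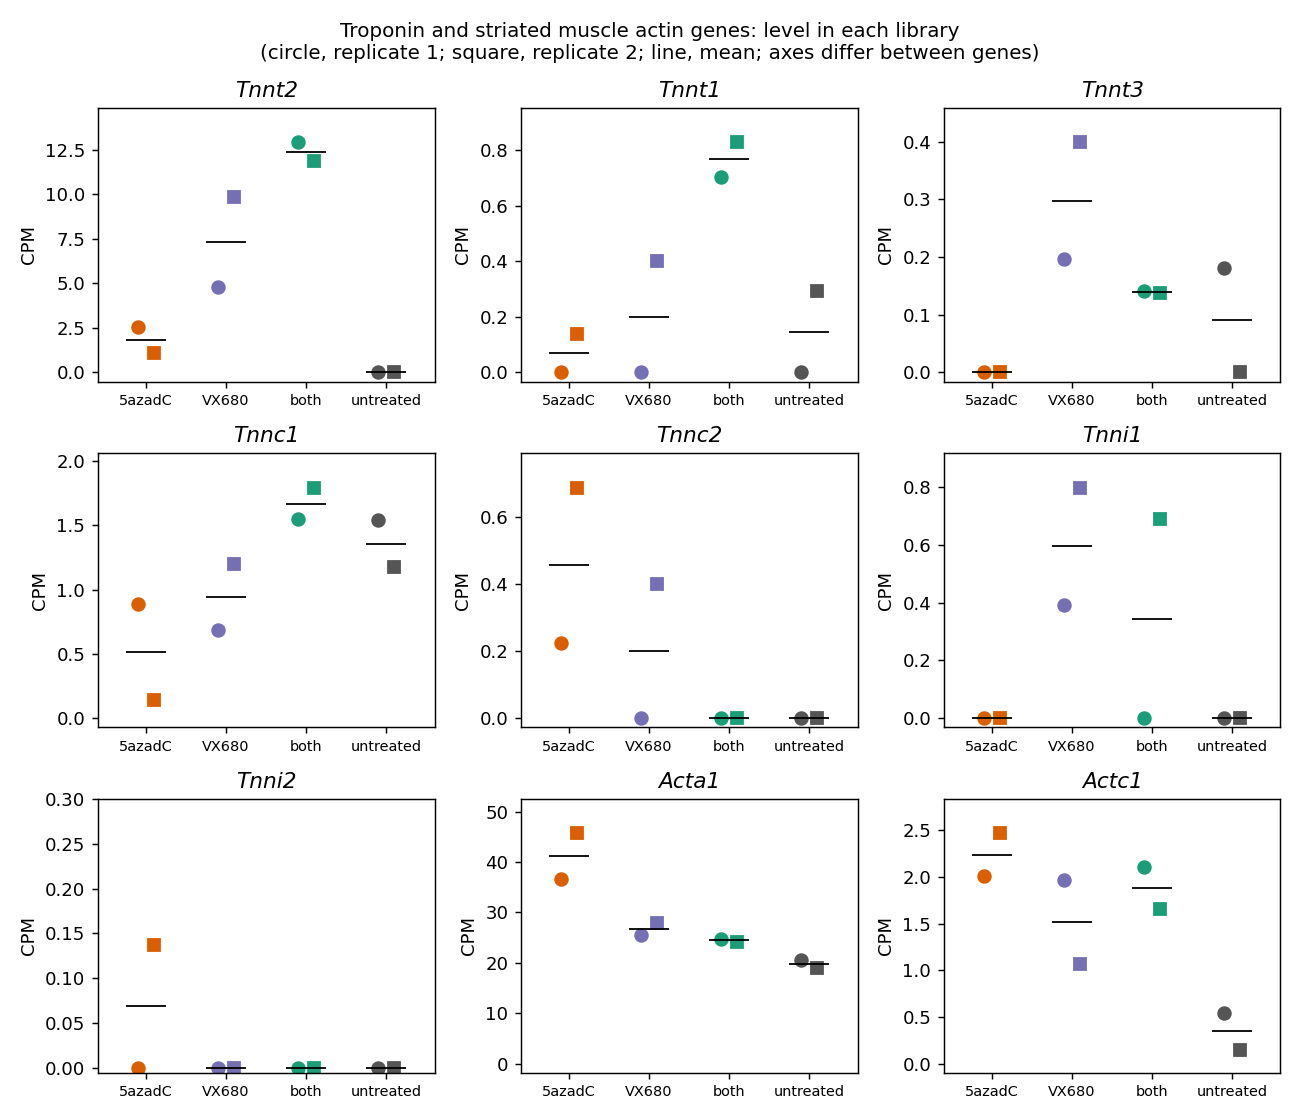
Level of each of the 9 genes in CPM (counts scaled by library size, linear axes that differ between genes), with a circle for replicate 1, a square for replicate 2 and a line at the mean of each group. Tnnt2 lies between 1.10 and 12.9 CPM in the drug groups and at 0 in untreated cells, Acta1 is highest with 5azadC, and 5 genes stay under 1 CPM everywhere.

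Tnnt2, the heart troponin T gene, was undetected in untreated cells and present in all drug libraries, most with the combination. It had 23 and 8 reads with 5azadC, 49 and 74 with VX680, and 92 and 86 with the combination, against 0 and 0 in untreated cells. As CPM these were 2.56 and 1.10 with 5azadC, 4.81 and 9.85 with VX680, and 12.9 and 11.9 with the combination. All drug libraries thus lay above both untreated libraries, the 3 drug groups did not overlap, and the order was 5azadC, VX680, combination. The share of all tested genes whose libraries separate in this way, here or for the genes below, was not counted. Set against 3 reads over the untreated group, Tnnt2 was at least 11.3-fold higher with 5azadC, at least 41.4-fold higher with VX680 and at least 73.8-fold higher with the combination. These ratios carry no test, since the rule used them.

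The drug groups were also compared with each other, an order that did not enter the choice of the members. Tnnt2 had enough reads for a test only through the VX680 and combination libraries, in which it was high. The filter thus favoured a lower level with 5azadC. Tnnt2 averaged 12.4 ± 0.755 CPM with the combination and 1.83 ± 1.04 CPM with 5azadC alone (SD, n = 2 each), a log2 fold change of 2.71 ± 0.44 (SE). This passed the edgeR quasi-likelihood test across 12643 genes with a Benjamini-Hochberg adjusted p of 0.000776. Without 5azadC replicate 1, the higher of that group, the value was 3.47 and the call held. With 5azadC alone Tnnt2 was also below VX680 alone, which averaged 7.33 ± 3.57 CPM, by a log2 fold change of -1.93 ± 0.45 (adjusted p = 0.0118). The VX680 libraries lay far apart, and this call was lost without VX680 replicate 2 (-1.35, adjusted p = 0.154) and when only the 4 libraries compared were fitted (adjusted p = 0.0505). Without 5azadC replicate 1 it was -2.69. Between the combination and VX680 alone, the log2 fold change of 0.78 ± 0.38 did not pass (adjusted p = 0.266). On the linear scale the combination reached 12.4 ± 0.755 CPM. The single drugs, with nothing to subtract for untreated cells, add up to 9.16 ± 3.71 CPM (SD, from 2 libraries per group). The difference between the 2 values was not tested.

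The other troponin T genes were close to the limit of detection. Tnnt1, the slow skeletal form, had 0 and 1 reads with 5azadC, 0 and 3 with VX680, 5 and 6 with the combination, and 0 and 2 in untreated cells. The combination libraries held the highest counts. Tnnt3, the fast skeletal form, had no reads with 5azadC, 2 and 3 with VX680, 1 and 1 with the combination, and 2 and 0 in untreated cells, so its groups overlapped. Neither had enough reads for a test. When genes with few reads were kept in the fit, the smallest adjusted p of any comparison was 0.234 for Tnnt1 and 0.440 for Tnnt3.

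Troponin C was read mostly from Tnnc1, and no difference in it passed the test. Tnnc1 had 8 and 1 reads with 5azadC, 7 and 9 with VX680, 11 and 13 with the combination, and 17 and 8 in untreated cells. Its means were 0.514 ± 0.534 CPM with 5azadC, 0.943 ± 0.362 with VX680, 1.67 ± 0.175 with the combination and 1.36 ± 0.261 in untreated cells (SD, n = 2 each). The 5azadC libraries were the lowest on average and the farthest apart. Against untreated cells the log2 fold changes were -1.32 ± 0.71 with 5azadC (adjusted p = 0.157), -0.58 ± 0.65 with VX680 (0.486) and 0.27 ± 0.61 with the combination (0.728). Between drug groups they were 1.59 ± 0.71 for the combination against 5azadC (0.123), 0.86 ± 0.65 for the combination against VX680 (0.511) and -0.73 ± 0.76 for 5azadC against VX680 (0.578), and the interaction was 2.17 ± 0.97 (0.152). The 5azadC result turned on 1 library: without 5azadC replicate 1, which left 1 read in that group, the adjusted p was 0.0490 against untreated cells and 0.0439 for the combination against 5azadC. Tnnc2, the fast skeletal form, had 2 and 5 reads with 5azadC and 0 and 3 with VX680, and none with the combination or in untreated cells. Both 5azadC libraries had reads, but the count was too low for a test, and with such genes kept the smallest adjusted p was 0.177, for 5azadC against untreated cells.

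Both troponin C genes overlap a gene on the other strand that had far more reads, and no source used here says whether reads were counted by strand, so reads of a pair cannot be told apart. Nisch, opposite Tnnc1, averaged 607 CPM with 5azadC, 591 with VX680, 500 with the combination and 762 in untreated cells. Ube2c, a mitotic ubiquitin-conjugating enzyme opposite Tnnc2, averaged 199 CPM with 5azadC, 308 with VX680, 303 with the combination and 193 in untreated cells. The part of these genes in the troponin C counts was not tested. No gene of the annotation overlaps Tnnt1, Tnnt2, Tnni1 or Tnni2, and the genes Prr33 and A530058N18Rik, which overlap Tnnt3 and Actc1, had no reads. Gm20388, which overlaps Acta1, was not analysed here.

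The troponin I genes were nearly silent. Tnni1, the slow skeletal form, had 4 and 6 reads with VX680 and 0 and 5 with the combination, and none with 5azadC or in untreated cells. Only libraries that received VX680 had any, although 1 combination library had none. With genes of few reads kept in the fit, its smallest adjusted p was 0.0842, for VX680 against untreated cells. Tnni2, the fast skeletal form, had 1 read, in 5azadC replicate 2. The heart form Tnni3, which is no member of the group, had 6 reads with 5azadC, 7 with VX680, 6 with the combination and 8 in untreated cells, with a similar count in each group.

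Tnni1 and Tnnt2 are neighbours on chromosome 1, where the GENCODE M21 order of protein-coding genes is Phlda3, Tnni1, Lad1, Tnnt2, Pkp1. Lad1 and Pkp1, which encode an anchoring filament protein and a desmosome protein of epithelia, had most of their reads in the groups in which Tnni1 had reads. Lad1 had 4 reads with 5azadC, 26 with VX680, 23 with the combination and 3 in untreated cells. Pkp1 had 5 reads with 5azadC, 89 with VX680, 45 with the combination and 1 in untreated cells. Both passed the test with VX680 (adjusted p = 0.00921 for Lad1 and 3.18e-05 for Pkp1) and with the combination (0.00613 and 9.51e-05), and neither passed with 5azadC (0.746 and 0.188). Both had enough reads for a test only through the VX680 and combination libraries, in which they were high. Of all tested genes, 23.8% rose with VX680 and 28.4% with the combination. Phlda3, on the far side of Tnni1 and a known p53 target, rose in every drug group, by log2 fold changes of 2.08, 1.86 and 2.22 with 5azadC, VX680 and the combination. A similar pattern was found beside another member: Stab1, next to Tnnc1, had 1 read with 5azadC, 37 with VX680, 32 with the combination and 1 in untreated cells. Of the other tested genes beside members, Dnttip1, Ccsap, Nup133, Aqr and Mrpl23 passed in no drug group. Ppp1r12c, Lsp1, Sema3g and Snx21 passed in some. Whether neighbours respond together was not tested. All neighbours were looked up after the values were known.

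Actin genes of striated muscle had reads in all libraries, and Acta1, the skeletal actin, rose most with 5azadC alone. Its reads numbered 328 and 333 with 5azadC, 259 and 209 with VX680, 176 and 175 with the combination, and 227 and 129 in untreated cells. In CPM the libraries had 36.6 and 45.7 with 5azadC, 25.4 and 27.8 with VX680, 24.7 and 24.1 with the combination, and 20.6 and 18.9 in untreated cells. Every drug library was above both untreated libraries, and the 5azadC libraries were above all others. Against untreated cells Acta1 rose with 5azadC by a log2 fold change of 1.05 ± 0.15 (adjusted p = 0.000101) and with VX680 by 0.42 ± 0.15 (adjusted p = 0.0374). With the combination it was 0.30 ± 0.16, which did not pass (adjusted p = 0.119). The 5azadC call held in every setting tried. The VX680 call was lost with the DESeq2 test and without any 1 of the 6 libraries of untreated cells, VX680 or the combination (adjusted p between 0.0532 and 0.187), and the combination passed with limma on the deposited normalized signal (0.41, adjusted p = 0.0380).

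For Acta1 the combination thus lay below 5azadC alone. It averaged 24.4 ± 0.421 CPM with the combination and 41.1 ± 6.44 CPM with 5azadC (SD, n = 2 each), a log2 fold change of -0.75 ± 0.15 that passed (adjusted p = 0.00276). Against VX680 alone, at 26.6 ± 1.70 CPM, the combination was -0.12 ± 0.15 (adjusted p = 0.731). With 5azadC alone Acta1 was above VX680 alone by 0.63 ± 0.15 (adjusted p = 0.0108), a call that was lost without 5azadC replicate 2, VX680 replicate 1 or VX680 replicate 2 (adjusted p between 0.0543 and 0.121). The interaction, which is the log2 level with the combination minus each single drug plus untreated cells, was -1.17 ± 0.22 (adjusted p = 0.00265) and held in every setting tried. On the linear scale the combination had 24.4 CPM, while the sum of the single drugs less the untreated level was 48.0 ± 6.76 CPM. Actb, with which Acta1 shares the windows counted above, rose by 0.70 with 5azadC, 0.68 with VX680 and 0.74 with the combination on the log2 scale, and its part in the Acta1 counts was not tested.

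Actc1, the heart actin, rose in all 3 drug groups from very few reads in untreated cells. It had 18 and 18 reads with 5azadC, 20 and 8 with VX680, 15 and 12 with the combination, and 6 and 1 in untreated cells. In CPM these were 2.01 and 2.47 with 5azadC, 1.96 and 1.07 with VX680, 2.11 and 1.66 with the combination, and 0.544 and 0.147 in untreated cells. All drug libraries were above both untreated ones, while the drug groups overlapped each other. The log2 fold changes were 2.49 ± 0.66 with 5azadC (adjusted p = 0.00775), 1.97 ± 0.68 with VX680 (0.0292) and 2.25 ± 0.68 with the combination (0.0122). No comparison between drug groups passed: the combination against 5azadC gave -0.24 ± 0.53 (0.774), the combination against VX680 0.27 ± 0.54 (0.842), and 5azadC against VX680 0.52 ± 0.52 (0.568). The interaction of -2.21 ± 0.87 did not pass either (0.103).

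The 7 untreated reads of Actc1 limit these results. It had enough reads for a test only through the drug libraries, in which it was high, so the filter favoured a rise. Without untreated replicate 2, which held 1 of them, the adjusted p was 0.0633 with 5azadC, 0.159 with VX680 and 0.0814 with the combination, and without untreated replicate 1 the calls held and the fitted values were over 1.5 times as large. The VX680 call was also lost without VX680 replicate 1 (0.266) and with DESeq2 (0.0611), and that of the combination without its replicate 1 (0.0735).

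Counted over the members, 2 of the 3 with a test rose with 5azadC (Acta1 and Actc1) and none fell, where 22.6% of all tested genes rose and 19.6% fell (42.2% in either direction). With VX680 the same count was 2 higher and 0 lower, beside 23.8% and 22.4% of all tested genes (46.1% in either direction). With the combination 1 rose (Actc1) and 0 fell, beside 28.4% and 27.3% (55.7% in either direction). These counts leave out Tnnt2 and are too small to set against such shares. Actc1 had enough reads for a test only through drug libraries, where it was high, so a fall of Actc1 could hardly have been called. Between the drug groups Tnnt2 had a test as well, with enough reads for it only through the VX680 and combination libraries. Of 4 members, 1 was higher with the combination than with 5azadC (Tnnt2) and 1 lower (Acta1), beside 9.98% and 14.8% of all tested genes (24.8% in either direction). With the combination against VX680 0 of 4 passed in either direction, beside 2.45% and 4.05% (6.5% in either direction). In that comparison edgeR also gave 0 of 4 with an unadjusted p under 0.05, the smallest being 0.0587 for Tnnt2, and DESeq2 and limma called 0. With 5azadC against VX680, 1 was higher (Acta1) and 1 lower (Tnnt2), beside 9.33% and 6.47% (15.8% in either direction). In the interaction 1 of 3 was lower (Acta1) and 0 higher, beside 10.6% and 4.95% (15.6% in either direction). The median log2 fold change of all tested genes lay between -0.03 and 0.01 in every comparison.

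**Figure D2:**
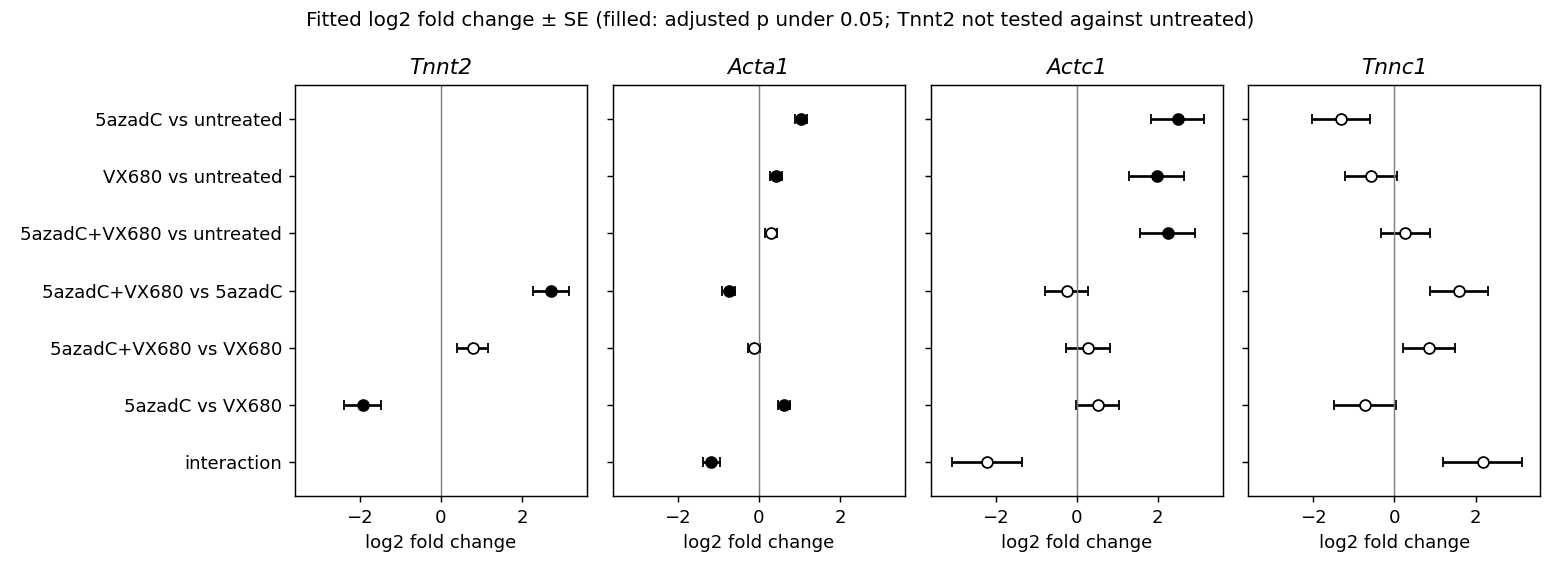
Log2 fold change with its standard error for the 4 members with enough reads, in each comparison (first-named group over the second), filled where the adjusted p was under 0.05. Tnnt2 is shown only between drug groups, and its highest value is 2.71 for the combination over 5azadC, where Acta1 has -0.75.

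Likeness to Tnnt2 was measured for the other 3 members with enough reads. Across the 8 libraries, the log2 CPM of Tnnt2 had a Pearson correlation of 0.71 with Actc1, 0.25 with Acta1 and 0.16 with Tnnc1. The genes whose levels ran closest to Tnnt2 were Bend4 (0.995), Ppp2cb, Tmem183a and Rnf6 (0.992 each), and Umps and Ecel1 (0.991 each), of 12643 tested. With Tnnt2 itself counted as rank 1, Actc1 ranked 3120, Acta1 5478 and Tnnc1 5858 in likeness. Bend4 averaged 11.7 CPM with 5azadC, 19.0 with VX680, 23.9 with the combination and 5.35 in untreated cells. Ecel1, an endopeptidase of the nervous system, was the one of these 6 that also had no untreated reads, at 0.609, 1.95, 2.30 and 0 CPM in the same order of groups. These are descriptions over 8 libraries that share the same 4 groups.

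Reads over a base that differs between the parents show which allele, mus or cas, they came from. With the combination Tnnt2 had 19 mus and 8 cas reads in replicate 1 and 24 mus and 9 cas reads in replicate 2. Together 43 of 60 reads (71.7%) were mus, with an exact (Clopper-Pearson) 95% interval of 58.6 to 82.5%. Both replicates lay above the median over 10023 autosomal genes, which was between 46.4 and 46.8% in each library. With VX680 5 of 9 reads were mus (55.6%, 21.2 to 86.3%), and with 5azadC 5 of 5 (47.8 to 100%), so the intervals of the 3 drug groups overlapped, and untreated cells had no read of either allele. These intervals cover counting error only, and Tnnt2 had too few allelic reads for a test of the ratio. The yield of allelic reads was uneven, with 60 beside 178 Tnnt2 reads with the combination, 9 beside 123 with VX680 and 5 beside 31 with 5azadC. The reason was not tested, and it limits the reading of the mus share.

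Acta1 alone of the 9 members averaged 10 or more allelic reads in a library. Its mus share was 47.7% with 5azadC (41 of 86 reads), 51.0% with VX680 (26 of 51) and 52.3% with the combination (23 of 44), against 38.5% in untreated cells (20 of 52, 25.3 to 53.0%). Single libraries ranged more widely than the groups, as in the combination, with 33.3% in replicate 1 and 69.6% in replicate 2. The log2 change of the mus-to-cas ratio against untreated cells was 0.55 ± 0.81 with 5azadC (adjusted p = 0.963), 0.78 ± 0.86 with VX680 (0.960) and 0.85 ± 0.88 with the combination (0.884), so none passed edgeR, where 0.282%, 0.379% and 0.515% of 10301 genes did. All 3 also missed an adjusted p of 0.05 with DESeq2. In the authors' deposited table of allelic tests, Acta1 rose with 5azadC on the mus allele (log2 fold change 1.39, false discovery rate 0.0170) and on the cas allele (0.81, 0.0388). In the authors' deposited table the values with VX680 were 0.99 (0.0641) for mus and 0.21 (0.655) for cas, and with the combination 0.88 (0.179) and 0.06 (0.933). Tnnc1 had 1 mus and 6 cas reads with 5azadC, 4 and 4 with VX680, 2 and 8 with the combination, and 7 and 2 in untreated cells, too few for a test.

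**Figure D3:**
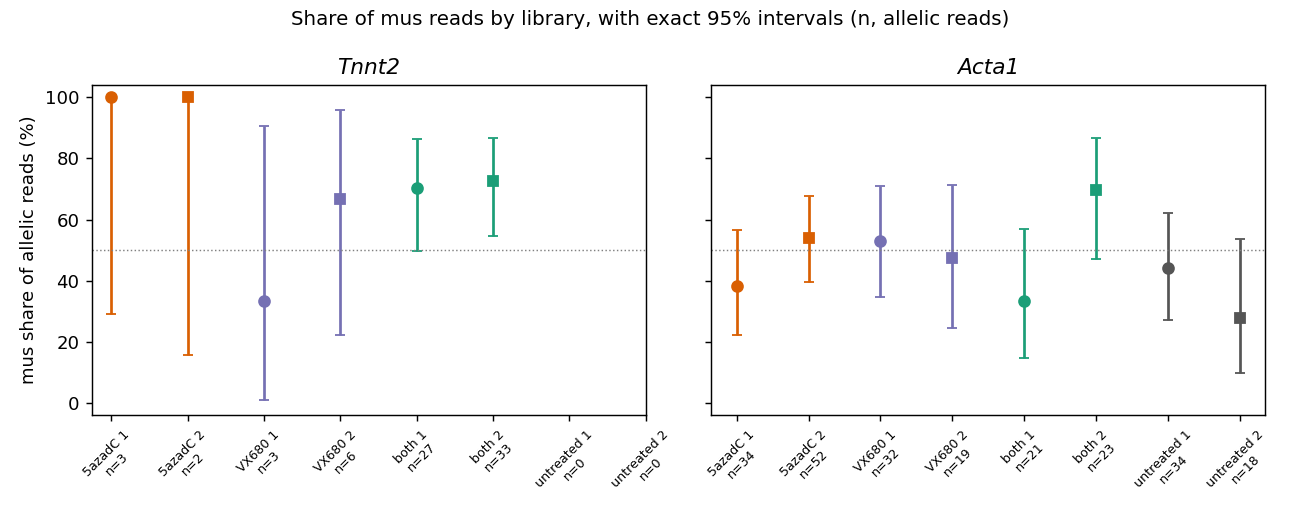
Share of mus reads (%) among allelic reads of Tnnt2 and Acta1 in each library, with exact 95% intervals, the number of allelic reads below each library and a dotted line at 50%. For Tnnt2 the 2 combination libraries lie at 70.4% and 72.7%, the 5azadC and VX680 libraries rest on 2 to 6 reads each, and the untreated libraries have none.

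The rest of the sarcomere was read from a few genes. Of 50 other sarcomere genes (thick filament, titin, nebulin, Z disc and M band), 15 had enough reads for a test and 8 were at 0 in every library, among them the myosin light chains Myl1, Myl2 and Myl7. Against untreated cells 5 rose and 2 fell with 5azadC, 8 rose and 0 fell with VX680, and 9 rose and 2 fell with the combination. Of all tested genes, 22.6% rose and 19.6% fell with 5azadC. The shares were 23.8% and 22.4% with VX680, and 28.4% and 27.3% with the combination. Several of the 15, such as Myh3 and Tnni3k, had enough reads for a test only through the drug groups in which they were high, so these counts describe the tested genes and not the list of 50. The VX680 count of 8 was 4 without untreated replicate 1 and 5 when only the libraries compared were fitted. Of the falls, the 5azadC count was 1 without untreated replicate 1, the VX680 count 1 without VX680 replicate 1 or with no filter, and that of the combination 1 without any 1 of the untreated or combination libraries, with DESeq2 or with limma.

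On the log2 scale Ankrd1, a titin-binding stress protein of striated muscle that many cultured cells also make, rose by 3.13 ± 0.15 with 5azadC, 3.92 ± 0.14 with VX680 and 4.52 ± 0.14 with the combination. Des, the muscle intermediate filament protein desmin, rose by 2.64 ± 0.61, 3.05 ± 0.59 and 3.39 ± 0.59 in the same groups. Myh7b, a slow myosin heavy chain, rose by 3.71 ± 0.43, 1.67 ± 0.51 and 4.13 ± 0.42. Capzb, the beta subunit of the actin capping protein and present in most cells, rose by 0.66, 0.62 and 0.61. Ldb3, a Z disc protein, rose by 1.54 ± 0.20 with 5azadC and 0.88 ± 0.20 with VX680. The falls were those of Neb, the nebulin ruler of the thin filament, with -1.63 under 5azadC and -0.88 under the combination, and of Myom1, an M band protein, with -1.18 and -1.06. Some genes that, like Tnnt2, had few or no untreated reads were the embryonic myosin Myh3, with 8 reads with 5azadC, 19 with VX680, 25 with the combination and 1 in untreated cells, and the kinase Tnni3k, with 6, 20, 28 and 0.

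**Figure D4:**
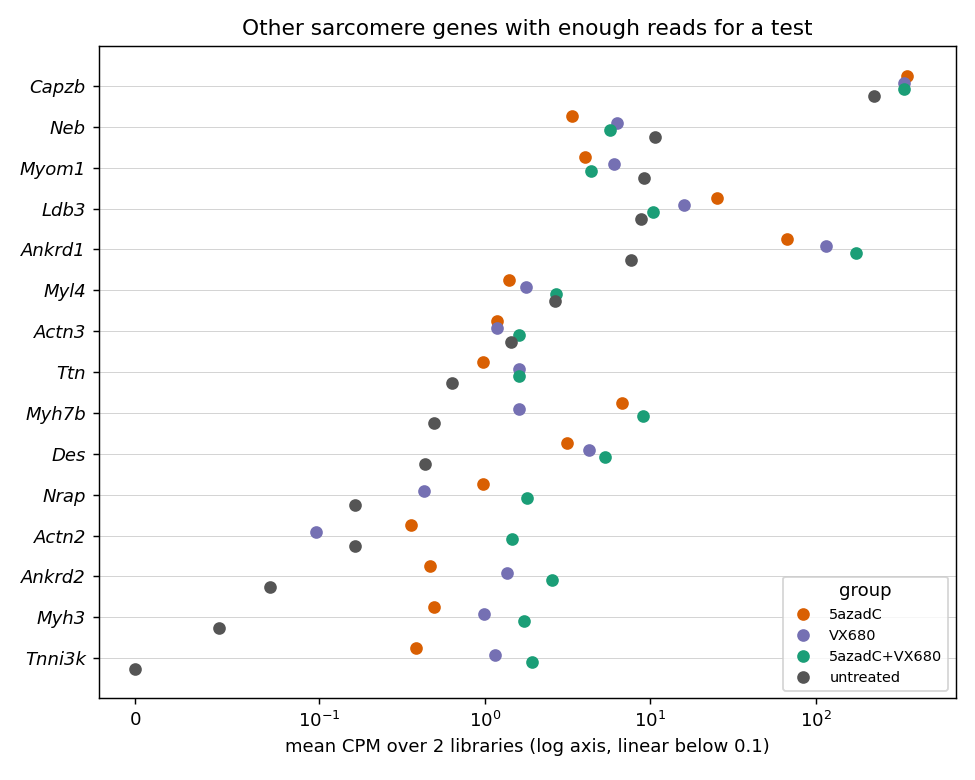
Mean level in CPM (log axis, linear below 0.1) of the 15 other sarcomere genes with enough reads for a test, with a point for each group. Ankrd1, Des and Myh7b lie higher in every drug group than in untreated cells, Neb and Myom1 lie lower, and Tnni3k has no untreated reads.

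Actin partners that fibroblasts also use rose as well. Among all tested genes, 22.6% rose with 5azadC, 23.8% with VX680 and 28.4% with the combination, and 10.6% had a negative interaction that passed. All 4 tropomyosin genes rose in each drug group, with median log2 fold changes of 0.80 with 5azadC, 0.71 with VX680 and 0.73 with the combination, and all 4 had a negative interaction that passed. Tpm1 rose by 1.01 with 5azadC, 0.63 with VX680 and 0.66 with the combination, and its interaction was -0.98. Of the 5 other actin genes Actbl2 was at 0 and 4 were tested. They rose with 5azadC and with VX680, and all but Acta2 rose with the combination. All 4 had a negative interaction that passed, as Acta1 did, of -1.67 for the enteric smooth muscle actin Actg2, -1.13 for the vascular smooth muscle actin Acta2, -0.65 for Actb and -0.51 for Actg1.

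Smooth muscle contractile genes rose more often than they fell. Of 14, all tested and including Acta2, Actg2 and Des from the lists above, 12 rose and 1 fell with 5azadC, 9 rose and 1 fell with VX680, and 8 rose and 2 fell with the combination, with median log2 fold changes of 1.18, 0.74 and 0.67. Beside these counts, 22.6% of all tested genes rose and 19.6% fell with 5azadC. The shares were 23.8% and 22.4% with VX680, and 28.4% and 27.3% with the combination. The 2 falls with the combination were 1 without any 1 of the untreated, VX680 or combination libraries, and with limma. Des, Synpo2 and Myh11 had enough reads for a test only through drug libraries in which they were high. Cnn1, the smooth muscle calponin, rose by 3.39, 2.91 and 3.10, and Mylk, the myosin light chain kinase, fell by 0.62 with 5azadC, by 2.64 with VX680 and by 3.12 with the combination. The combination was lower than 5azadC for 6 of the 14 and higher for none, beside 14.8% and 9.98% of all tested genes. A negative interaction that passed was found for 10 of the 14, beside 10.6% of all tested genes.

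Regulators and other markers of striated muscle were mostly below the test. Of 27 muscle transcription factors 11 were tested and Pax7 and Hand2 were at 0 in every library. With 5azadC 3 rose and 2 fell, with VX680 1 rose and 3 fell, and with the combination 2 rose and 3 fell. Beside them, 22.6% of all tested genes rose and 19.6% fell with 5azadC. The shares were 23.8% and 22.4% with VX680, and 28.4% and 27.3% with the combination. Counts over 11 genes are too small to set against such shares. These small counts changed by over 1.5 times without 1 library: the falls with 5azadC ran from 1 to 4 without untreated replicate 2, either 5azadC library or either combination library, and without either 5azadC library the rises with VX680 were 3 and the falls with the combination 5. Other settings moved them within the same ranges. Srf, the factor that binds actin gene promoters, rose by 0.79 with 5azadC, 0.49 with VX680 and 0.58 with the combination, with an interaction of -0.71 (adjusted p = 0.00593). Tead1, a factor of muscle gene promoters, fell by 0.46, 0.60 and 0.64 in the 3 drug groups. Myod1, the muscle determination factor, had 15 reads with 5azadC, 2 with VX680, 18 with the combination and 4 in untreated cells, too few for a test.

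Of 18 skeletal muscle markers outside the sarcomere 3 were tested, and 1 rose with 5azadC (Eno3) and all 3 with VX680 and with the combination (Eno3, Pygm and Ryr1). Pygm and Ryr1 had enough reads for a test only through drug libraries in which they were high, so this count describes the tested genes and not the list. Of all tested genes, 22.6% rose with 5azadC, 23.8% with VX680 and 28.4% with the combination. Eno3, the muscle enolase, rose by 0.60, 1.21 and 1.52 in the 3 drug groups. Pygm, the muscle glycogen phosphorylase, rose by 2.48 with VX680 and 2.95 with the combination. The summed level of the 18 was 26.2 to 26.7 CPM with 5azadC, 43.8 to 44.6 with VX680, 50.6 to 54.1 with the combination and 15.9 to 17.3 in untreated cells. Most of this sum was Eno3, at a mean of 22.7 CPM with 5azadC, 34.6 with VX680, 42.8 with the combination and 14.9 in untreated cells. Of the defining genes, the mitochondrial creatine kinase Ckmt2 was at 0 in every library, and the cytosolic one, Ckm, had 0 reads with 5azadC, 16 with VX680, 7 with the combination and 1 in untreated cells. Of 11 heart markers 2 were tested: Atp2a2, a calcium pump of many cells, rose in each drug group, and the calcium channel gene Cacna1c fell by 0.61 with VX680 and by 1.51 with the combination. Over the 11, the summed level was 426 to 435 CPM with 5azadC, 379 to 400 with VX680, 380 to 392 with the combination and 295 to 349 in untreated cells. The part of muscle cells on the plates in the member levels was not tested.

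Markers of other cells moved too. Among all tested genes, 22.6% rose and 19.6% fell with 5azadC. The shares were 23.8% and 22.4% with VX680, and 28.4% and 27.3% with the combination. Of 8 fibroblast markers 7 were tested, and 2 rose (Thy1 and Vim) and 5 fell in each drug group, among them the collagen gene Col1a1 by 0.99 with 5azadC, by 2.02 with VX680 and by 2.89 with the combination. Of 4 endothelial markers 2 were tested, and both rose with VX680 (Tek and Pecam1) and neither with 5azadC or the combination, a count of 2 that was 0 without untreated replicate 1, untreated replicate 2 or VX680 replicate 2 and 1 without VX680 replicate 1, with DESeq2 or with only the libraries compared. Without combination replicate 2, or with no filter, 1 rose with the combination. Tek and Pecam1, with 9 and 5 untreated reads, had enough reads for a test only through drug libraries. The summed endothelial level was 1.23 to 2.19 CPM with 5azadC, 3.73 to 5.59 with VX680, 3.73 to 3.94 with the combination and 0.635 to 1.03 in untreated cells. Of 4 leukocyte markers 2 were tested, and Cd68 rose in each drug group while Lyz2 fell with VX680 and the combination. The summed leukocyte level was 16.4 to 21.1 CPM, 20.1 to 21.3, 19.2 to 25.7 and 15.98 to 19.04 in the same order of groups, with the defining gene Ptprc at 2 reads, both with the combination. Of 6 keratinocyte markers 1 was tested and did not pass in any drug group, and their sum was between 1.36 and 2.93 CPM in all libraries.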

How the data were processed

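Libraries were made from total RNA (Trizol) with a dUTP directional kit, per the labels' protocols. The submitters' processing notes name, without saying what each did, TopHat2 2.0.10, HOMER 4.8, edgeR and the genome build mm9. The authors deposited raw counts per gene for both alleles together and for the mus and cas alleles. Their normalized signal, deposited as a second table, equals those counts times 1 factor per library. The deposited length column gives gene length in bases, another quantity, used for RPKM. The deposited allelic tables give the authors' log2 fold change, a mean log2 CPM, and each test's p-value with its false discovery rate. There were 32 per-sample columns in those tables that were not used.

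Counts were tested with edgeR 4.0.16 (R 4.3.3): filterByExpr with its minimum count of 10, TMM, 1 mean per group over all 8 libraries, quasi-likelihood F tests and Benjamini-Hochberg adjusted p under 0.05 over 12643 genes. Log CPM used a prior count of 2. Allelic ratios were tested with library terms and a mus term for each group, where a gene averaged 10 or more allelic reads. The fits were run on simulated counts whose spread was set beforehand. That check does not show how the tests perform at the replicate spread seen here. Alternatives were DESeq2 1.42.0 (size factors, and its test), no filter, limma 3.58.1 on log2(signal + 1), a replicate term, only the libraries compared, and each library left out. Settings for the gene lists were added after the data were seen.

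Same-numbered libraries did not deviate together (correlations of -0.0622 to 0.0326), so no replicate term entered the tests. Every member is named; of each gene list, up to 4 genes with the smallest p, and genes named for few or no reads, or to spell out a small count, were picked after their values were seen. For neighbours and sequences, GENCODE M21 stood in for the gene table that was planned. Some sequences and 1 listed gene are not reported here. Members, lists and tests were chosen with earlier results of these data known.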

Additional observations from a re-analysis of the deposited data

Results flagged for a closer look

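The response of Acta1 to 1 drug differed with the other drug present. The interaction of 5azadC and VX680 was -1.17 on the log2 scale (SE 0.22, adjusted p = 0.00265, edgeR). With 5azadC alone both libraries were above all others. With the combination both were below the 5azadC and VX680 libraries and above the untreated ones. The difference between the combination and VX680 did not pass (log2 fold change -0.12, adjusted p = 0.731, edgeR). Acta1 shared the negative interaction with some related genes and not with others. The interaction was also negative and passed for all 4 other tested actin genes, at -1.67 for Actg2, -1.13 for Acta2, -0.65 for Actb and -0.51 for Actg1. The same held for all 4 tropomyosins and for 10 of 14 smooth muscle contractile genes, beside 10.6% of all tested genes. Acta2 and Actg2 are counted in both the actin and the smooth muscle list. The interaction did not pass for Actc1 (-2.21, adjusted p = 0.103, edgeR) or Tnnc1 (2.17, adjusted p = 0.152, edgeR). Of the 15 tested other sarcomere genes, 3 had a negative interaction that passed.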

How the results depend on the processing

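Read depth limits 5 of the 9 genes to counts without a test, and the 7 untreated reads of Actc1 limit its folds. Over the settings tried, member fold changes kept their direction and call in 308 cases, lost it in 18, gained it in 3 and changed sign in 1. The 308 include comparisons that did not pass in the main fit and still did not pass. All 18 losses fall on comparisons that passed in the main fit. The change of sign was Actc1 in the combination against VX680, whose values ran from -0.063 without VX680 replicate 2 to 0.81 without VX680 replicate 1. Of the Acta1 allele ratios, none of which passed in the main fit, 29 kept their direction and call. That of the combination ran from -0.25 without combination replicate 2 to 1.92 without combination replicate 1. The 2 members higher with VX680 than untreated were 0 with the DESeq2 test and 1 with only the libraries compared. The 1 higher with the combination was 2 with limma on the deposited signal, and the 1 lower with 5azadC than VX680 was 0 with only the libraries compared. With each library left out, the members higher than untreated numbered 1 to 2 with 5azadC, 0 to 2 with VX680 and 0 to 1 with the combination, and those lower with 5azadC 0 to 1. In the same way those higher with the combination than 5azadC numbered 1 to 2, and those higher and lower with 5azadC than VX680 0 to 1 each. The cause was not tested. Replicate numbers did not pair the libraries; with a replicate block the counts of members were unchanged, for example 2 higher with 5azadC than untreated.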
